A study of Bos taurus with 88 samples.

Results

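Whole blood of 14 beef calves sampled 48 h after birth was compared between calves of Charolais × Limousin cows (CL, n = 7) and calves of Limousin × Friesian cows (LF, n = 7). The members were chosen by the age and breed on the sample labels, which gave 14 of the 88 libraries of the series. Each library is the RNA of 1 calf at 1 age. The other libraries used below are those of the same 14 calves at 0, 72 and 168 h, and those of 8 Holstein dairy calves, which entered the fits of all 88 libraries and the check of calf identity and whose levels at 48 h are set beside those of the beef calves. The cows of both groups had been mated to Aberdeen Angus or Charolais bulls, so the breed is that of the dam. The sire of each calf is not on the labels and entered no fit. All 14 calves suckled their own dam and stayed with it, and the 0 h sample was taken before suckling. The Holstein calves came from another farm and were taken from the dam shortly after birth. They were given a fixed share of body weight as colostrum, by tube at the first feed and by teat feeder at the next. Breed, farm and feeding therefore cannot be told apart between them and the beef calves. Blood came from the jugular vein and RNA was isolated with the Tempus system. The comparison addresses whether 2 beef crossbreeds kept under like management differed in blood gene expression once colostrum had been taken.

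A calf is born with almost no circulating antibody, because the bovine placenta does not pass immunoglobulin to the fetus. Immunoglobulin, cytokines and cells reach the newborn through colostrum, and the gut takes them up whole for only about the first day of life. The blood RNA of a young calf is a mixture from neutrophils, lymphocytes, monocytes, platelets and immature red cells, whose proportions shift quickly after birth. In such bulk samples, fewer cells of a type and less RNA per cell cannot be told apart. The counts list genes by Ensembl identifier, and neither the count files nor the RefSeq gene table used here pairs these with symbols (0 identifiers matched). The roles of the leading genes and the blood cell markers could therefore not be examined, and only 2 identifiers in each direction are given.

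The 14 libraries at 48 h held 20350871 to 30998999 reads counted on genes. None of 7 library measures, among them the counts on genes, the unmapped share and the number of genes detected, differed between the breeds (exact permutation test, two-sided, smallest p = 0.384, Benjamini-Hochberg adjusted p = 0.990 for each). At 0 h the library of LF calf 1 (LF1) stood apart, with 26.1% of its reads on genes, 27.7% unmapped and 10023822 reads counted. The other LF libraries at 0 h had 62.3% to 67.0% of their reads on genes. The LF1 library was kept and enters every LF value at 0 h and every LF change from 0 h below. Each library was also compared with the other libraries of its own calf, over the 150 genes that differed most between calves relative to their spread within a calf at 2 other ages. All 22 libraries at 48 h and all 22 at 0 h, Holstein calves included, correlated best with the calf they were assigned to. At 48 h the lowest of these correlations was 0.742, for LF5, meaning LF calf 5, whose reference included the 72 h library described next. Over all genes tested, the 48 h library of LF5 correlated best with its own 0 h library among the LF calves, as did those of the other 13 calves within their breed. Libraries at the later ages went against their labels in 5 cases. The library labelled LF5 at 72 h correlated with calf CL1 (r = 0.911) and not with LF5 (r = 0.187). At 168 h the library labelled CL1 correlated best with LF5 (r = 0.750), the one labelled CL2 with CL3 (r = 0.933), the one labelled CL3 with CL2 (r = 0.966) and the one labelled LF6 with CL6 (r = 0.905). No library was moved to another group. For the breed comparisons at 72 h and 168 h, the medians, the shares of genes on each side of 0 and the edgeR counts are given below with and without these libraries, and the other values at those ages include them.

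**Figure D1:**
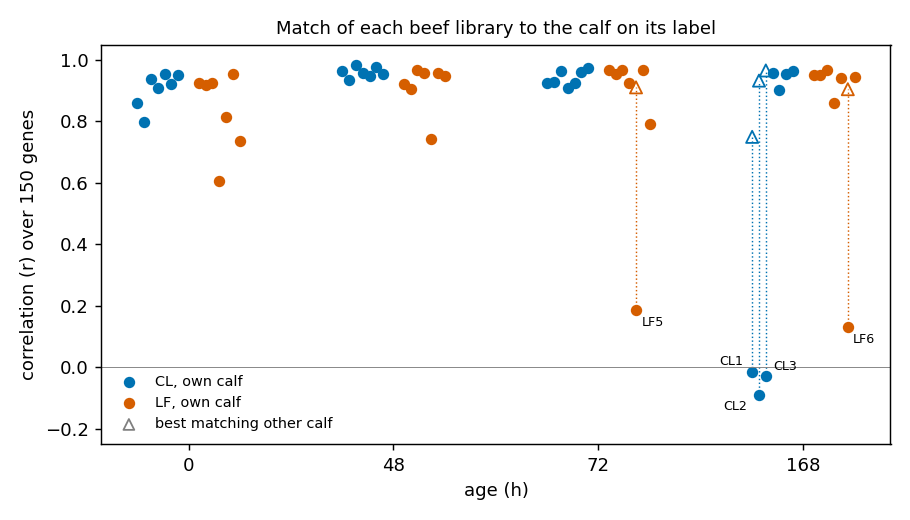
Correlation (r, vertical axis) of each CL and LF library with the mean of its own calf at 2 other ages over 150 genes, by age in hours, with open triangles for the best matching other calf where that was not the calf on the label. All points at 0 h and 48 h lie at or above 0.605, while 1 library at 72 h and 4 at 168 h lie at 0.187 or lower with their own calf.

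At 48 h no gene passed the test between CL and LF in the fit of the 14 libraries. The test was edgeR's quasi-likelihood test with 0.05 as the limit of the Benjamini-Hochberg adjusted p and 1.5 as the smallest fold change, and it called 0 of 12838 genes, with 0.0566 as the smallest adjusted p. An unadjusted p under 0.05 was reached by 2908 genes, which is 22.7% of those tested. Of these, 756 genes were lower in CL by at least 1.5-fold (5.89%) and 301 were higher (2.34%), against a median log2 fold change of 0.01 over all genes tested. The lower genes outnumbered the higher ones, and the median fold was 1.86 for the lower and 1.78 for the higher genes. At least 2-fold differences were seen in 314 of the lower and 90 of the higher genes. The lower genes had a median level of 33.5 CPM (counts scaled to the library's total on genes times its TMM normalization factor) and the higher genes one of 2.77 CPM, beside 21.1 CPM over all genes tested, as means of the 14 libraries.

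The number of genes called depended on the fit and on 1 calf. DESeq2 on the same 14 libraries called 489 genes lower (3.62%) and 91 higher (0.673%) in CL, together 4.29% of 13514. An edgeR fit of all 88 libraries called 455 lower and 87 higher (3.93%), and adding the number after the letter L on each label as a term left 172 genes (1.25%), 15 of them higher. Limma voom with sample weights called 718 lower and 337 higher (8.22%). DESeq2, the fit of all 88 libraries without the L number and limma voom shared 323 genes lower and 21 genes higher in CL. In the edgeR fit of the 2 groups, leaving out LF5 gave 726 lower and 240 higher genes (7.49% of 12892), whereas leaving out any of the other 13 calves gave at most 3 genes. In every fit that called 10 or more genes, more genes were lower than higher in CL.

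**Figure D2:**
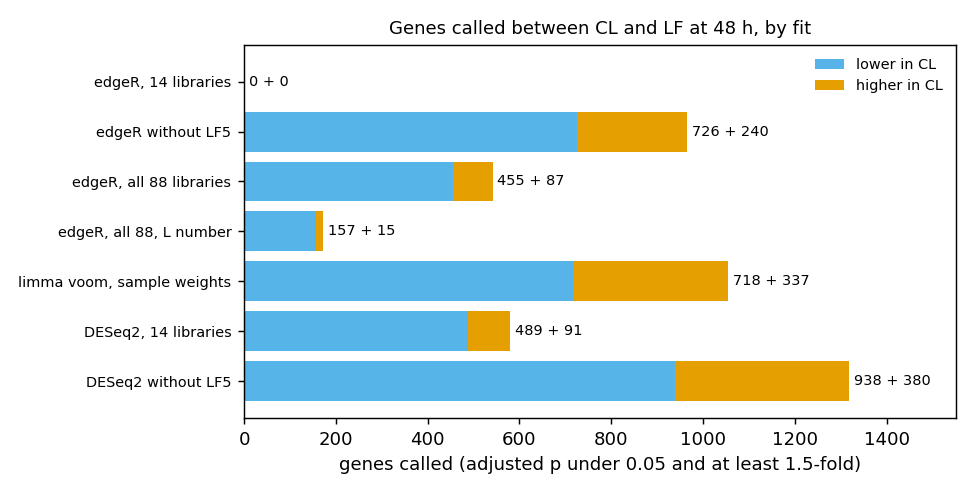
Genes called between CL and LF at 48 h (horizontal axis, adjusted p under 0.05 and at least 1.5-fold) in 7 fits, with genes lower in CL in blue and higher in CL in orange. The edgeR fit of the 14 libraries called 0 genes, and the other fits shown called 172 to 1318, most of them lower in CL.

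The 756 genes lower in CL were examined in each calf as their median log2 CPM. In the 7 CL calves this median lay between 4.05 and 4.59 (median 4.31). In the LF calves it was 5.60 in LF1, 6.06 in LF2, 5.02 in LF3, 4.88 in LF4, 4.18 in LF5, 5.62 in LF6 and 5.17 in LF7. LF1, LF2 and LF6 were the highest, and LF5 lay within the range of the CL calves while the other 6 LF calves lay above it. LF5 was the lowest LF library for 549 of the 756 genes (72.6%), compared with 24.8% of all genes tested. The 8 Holstein calves at 48 h lay between 4.52 and 5.53 (median 4.96), and thus overlapped both beef groups. For the 301 genes higher in CL, the median ran from 1.32 to 1.99 in CL and from 0.30 to 1.16 in LF, and CL and LF did not overlap. Here the 8 Holstein calves lay between 0.56 and 1.15 (median 0.92), within the range of LF and below every CL calf. LF5 was the highest LF library for 107 of these genes (35.5%, compared with 21.4% of all genes tested). These genes were chosen for the difference at 48 h, so their levels there are a description and were not tested.

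**Figure D3:**
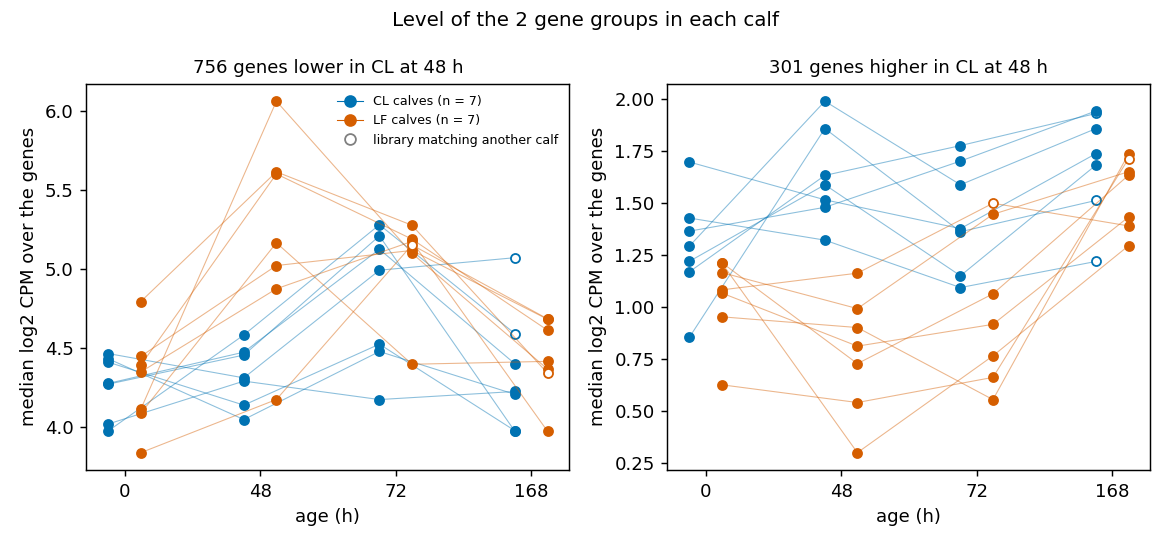
Median log2 CPM (vertical axis) of the 756 genes lower and the 301 genes higher in CL at 48 h, in each CL and LF calf at 4 ages in hours, with lines joining libraries of the same labelled calf and open circles for libraries that matched another calf. At 48 h, 6 of the 7 LF calves lie above all CL calves on the left, and all 7 lie below them on the right.

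The spread between calves at 48 h was larger in LF than in CL for most genes, as a description with no test. The median standard deviation of log2 CPM over all genes tested was 0.228 between CL calves and 0.320 between LF calves, and it was larger in LF for 73.5% of the genes. For the 756 lower genes the values were 0.401 and 0.709, with 89.0% larger in LF. Without LF5 the LF values were 0.285 over all genes and 0.570 over the lower genes, with 65.04% and 73.0% of genes larger in LF. At 0 h the standard deviation was larger in LF for 64.9% of all genes. For 15 genes (0.117% of 12838) every CL library at 48 h lay below every LF library, and for 29 genes (0.226%) every CL library lay above. Without LF5 these counts were 194 (1.51%) and 176 (1.37%). Leaving out any library can only keep or raise such counts. The spread and the counts without LF5 were added after seeing the data, and no other calf was left out for comparison.

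The 10 genes with the smallest p in each direction, with a mean of at least 1 CPM and at least 1.5-fold, had adjusted p-values of 0.0566 to 0.0822 when lower in CL and of 0.0566 to 0.0838 when higher. The 10 lower genes differed by 1.74- to 5.94-fold (median 2.67-fold), and the 10 higher genes by 1.61- to 10.8-fold (median 1.87-fold). CL and LF did not overlap for 3 of the lower and 5 of the higher genes, beside 0.117% and 0.226% of all genes tested in these directions. DESeq2 called all 20 of these genes, the fit of all 88 libraries called 10 lower and 8 higher, and limma voom called 10 lower and 9 higher. Each of these fits includes the libraries that chose the genes, so the calls are not independent of that choice. From 0 h to 48 h, the 10 lower genes had moved in several ways. By edgeR, 4 rose in both breeds, 3 rose in LF and were not called in CL, 2 fell in CL and were not called in LF, and 1 fell in both. Over all genes tested at 48 h, the shares of these 4 kinds were 3.85%, 3.33%, 4.85% and 2.60%. With the calf as a block, 6 of the 10 rose in both breeds and 1 rose in LF and was not called in CL, while the 3 genes that fell were counted alike. In that fit the shares over all genes were 4.74%, 3.32%, 4.90% and 3.21%, in the same order. Of the 10 higher genes, 7 were called in neither breed, 2 fell in LF and were not called in CL, and 1 fell in both (6, 3 and 1 with the calf as a block). Over all genes tested at 48 h these shares were 78.7%, 1.67% and 2.60% (76.2%, 2.63% and 3.21% with the block). The number called in neither breed was thus near the share of all genes. These changes use the same 48 h libraries as the comparison that chose the genes, so they are given as a description.

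ENSBTAG00000023026 had the smallest p of the genes lower in CL. At 48 h it was at 0.791, 0.301, 0.617, 0.213, 0.806, 0.932 and 0.500 CPM in CL1 to CL7, and at 5.68, 1.87, 1.81, 3.01, 1.82, 2.84 and 3.73 CPM in LF1 to LF7. Every CL calf lay below every LF calf, at 5 to 29 reads compared with 37 to 149. The log2 fold change was -2.30 ± 0.35 (SE, edgeR, adjusted p = 0.0566). Holstein calves at 48 h lay between 0.632 and 18.9 CPM and overlapped both CL and LF. At birth the gene had been far more abundant in both breeds, at a median of 18.7 CPM in CL and 17.4 CPM in LF, and the ranges overlapped (log2 fold change -0.43, adjusted p = 0.833). From 0 h to 48 h it fell in both breeds by edgeR, with log2 fold changes of -5.06 ± 0.44 in CL (adjusted p = 3.4e-06) and -3.19 ± 0.58 in LF (adjusted p = 0.0021). The level was lower at 48 h in each of the 7 CL calves and each of the 7 LF calves. The difference between these changes did not pass the test (log2 -1.87 ± 0.73, adjusted p = 0.301 by edgeR).

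ENSBTAG00000047904 had the largest fold change among the 10 lower genes. At 48 h it was at 11.5, 13.4, 8.71, 9.64, 9.79, 9.58 and 15.7 CPM in CL1 to CL7. The LF calves were at 126.6, 150.5, 20.9, 22.6, 17.8, 89.2 and 36.6 CPM in LF1 to LF7. The breeds did not overlap, and LF1, LF2 and LF6, which were also the highest for the 756 lower genes, stood far above the other LF calves. The log2 fold change was -2.57 ± 0.48 (SE, edgeR, adjusted p = 0.0822). At 0 h the CL calves were at 34.5 to 47.1 CPM and the LF calves at 21.6 to 85.1 CPM. It fell from 0 h to 48 h in CL (log2 -1.88 ± 0.13, adjusted p = 4.2e-07 by edgeR), in all 7 calves. In LF the change was 0.53 ± 0.50 (adjusted p = 0.50), with higher values in 4 calves and lower values in 3. For the difference between these changes, the value was -2.40 ± 0.56 (adjusted p = 0.273).

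ENSBTAG00000026971 had the smallest p among the genes higher in CL and the narrowest spread of the genes given here. At 48 h it lay between 14.01 and 16.4 CPM in CL (median 14.8) and between 5.66 and 10.7 CPM in LF (median 8.79), with no overlap. The log2 fold change was 0.83 ± 0.12 (SE, edgeR, adjusted p = 0.0566). Holstein calves at 48 h lay between 7.46 and 13.1 CPM, below every CL calf and overlapping LF. At 0 h the breeds overlapped, at 10.4 to 15.8 CPM in CL and 5.38 to 14.7 CPM in LF. Neither breed passed the test from 0 h to 48 h, with log2 changes of 0.28 ± 0.11 in CL (adjusted p = 0.0677) and -0.28 ± 0.22 in LF (adjusted p = 0.399 by edgeR).

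ENSBTAG00000027426 had the largest fold change among the 10 higher genes, and its CL calves fell into 2 levels. At 48 h CL3, CL4, CL6 and CL7 were at 22.8, 17.3, 20.1 and 20.4 CPM, while CL1, CL2 and CL5 were at 1.58, 1.24 and 1.46 CPM. The LF calves were all at 0.46 to 1.41 CPM, and the 8 Holstein calves at 0.63 to 3.02 CPM, so CL2 lay within the range of the LF calves, and CL1 and CL5 lay just above it and within that of the Holstein calves. The log2 fold change of 3.44 ± 0.70 (SE, edgeR, adjusted p = 0.0822) was therefore the mean of 2 levels and not a shift of the whole group. The same 4 CL calves were the high ones at 0 h and 72 h. From 0 h to 48 h the gene did not pass the test in either breed, with log2 changes of 0.11 ± 0.84 in CL (adjusted p = 0.935) and -0.49 ± 0.26 in LF (adjusted p = 0.202 by edgeR). At 168 h the libraries labelled CL2 and LF6 were high and the one labelled CL3 was low, and these are 3 of the libraries that matched another calf.

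**Figure D4:**
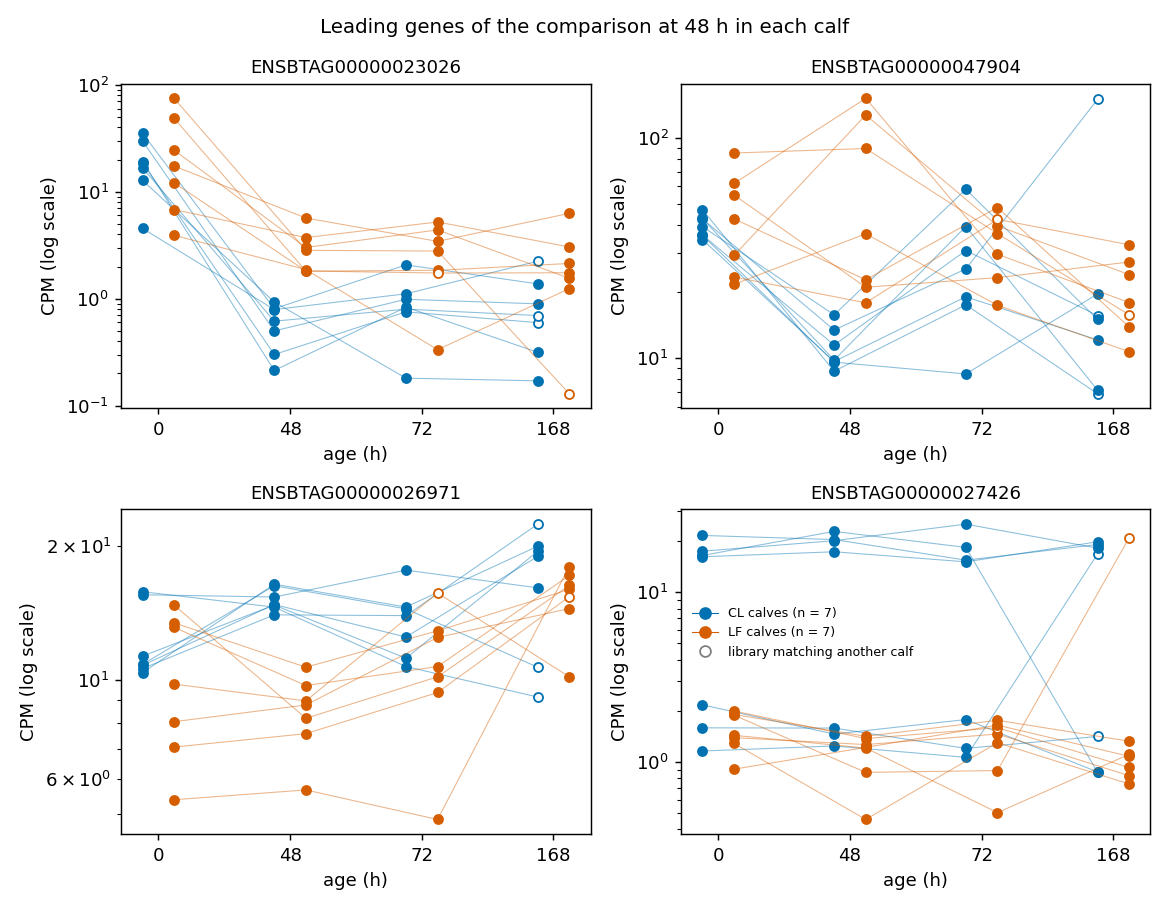
CPM on a log scale (vertical axis) of the 4 genes described, in each CL and LF calf at 4 ages in hours, with lines joining libraries of the same labelled calf and open circles for libraries that matched another calf. The upper genes were lower in CL at 48 h and the lower genes were higher, with 4 CL calves near 20.1 CPM and 3 near 1.46 CPM for ENSBTAG00000027426.

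Within each breed, many genes changed from birth to 48 h. In CL 904 genes rose (7.03% of 12852) and 1010 fell (7.86%) by edgeR, and in LF 943 rose (7.37% of 12794) and 578 fell (4.52%). With the calf as a block, 1017 rose and 1116 fell in CL, and 1063 rose and 790 fell in LF. Leaving out LF1 at both ages, for its 0 h library with few reads on genes, gave 765 rising and 400 falling genes in LF (12823 tested). The shares that follow come from the fit without a block and with LF1. Of the 756 genes lower in CL at 48 h, 49.2% of the 750 tested in LF rose there and 1.87% fell, while 21.0% of the 730 tested in CL rose there and 18.4% fell. Crossed between the breeds, 152 of them rose in both, 207 rose in LF and were not called in CL, 120 fell in CL and were not called in LF, 14 fell in both and 236 were called in neither. As shares of the 756 genes these were 20.1%, 27.4%, 15.9%, 1.85% and 31.2%, beside 3.85%, 3.33%, 4.85%, 2.60% and 78.7% of all genes tested at 48 h. Their median log2 change from 0 h was 0.04 in CL and 0.88 in LF, beside 0.00 and -0.01 over all genes tested. Taken calf by calf, the median change of these genes was above 0 in 7 of 7 LF calves (0.25 to 1.61) and in 4 of 7 CL calves (-0.20 to 0.52), so the breeds overlapped. Both within-breed comparisons share the 48 h libraries with the comparison that chose the genes, and they are given as a description.

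Of the 301 genes higher in CL at 48 h, 75 fell in LF and 21 fell in CL, while 22 rose in LF and 70 rose in CL. As shares of those tested (276 in LF, 297 in CL) these were 27.2%, 7.07%, 7.97% and 23.6%. The shares over all genes were 4.33%, 7.54%, 7.45% and 7.13%, so the falls in CL and the rises in LF were near those of all genes. In these, 55 fell in LF and were not called in CL, 43 rose in CL and were not called in LF, 21 rose in both, 20 fell in both and 44.9% were called in neither. The 4 crossed counts are 18.3%, 14.3%, 6.98% and 6.64% of the 301 genes, beside 1.67%, 3.02%, 3.85% and 2.60% of all genes tested at 48 h, of which 78.7% were called in neither. With the calf as a block, 79 fell in LF and were not called in CL, 30 rose in CL and were not called in LF, and 34 rose in both. In that fit these were 26.2%, 9.97% and 11.3% of the 301 genes, beside 2.63%, 2.95% and 4.74% of all genes tested at 48 h. The median log2 change from 0 h was 0.16 in CL and -0.53 in LF, beside 0.00 and -0.01 over all genes tested. The median change calf by calf was below 0 in 7 of 7 LF calves (-0.81 to -0.10) and above 0 in 4 of 7 CL calves (-0.12 to 0.63).

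The difference between the breeds in the change from 0 h to 48 h was tested directly with the 28 libraries of both ages. By edgeR 0 of 13339 genes passed the test (smallest adjusted p = 0.273), and an unadjusted p under 0.05 was reached by 1832 genes (13.7%). DESeq2 called 6 genes in which the change was higher in CL and 43 in which it was lower. With the calf as a block edgeR called 1 gene, and without LF5 it called 9 higher and 144 lower.

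The same breed comparison was made at the other ages, in the same calves but in libraries that had not chosen the genes. Libraries of the same calf at 48 h and 0 h deviated together (mean r = 0.476 in CL and 0.427 in LF). The genes were chosen for a difference between these same calves, so their values at the other ages are not independent of that choice. They are given as a description. At 0 h edgeR called 0 of 12744 genes, 1277 (10.0%) had an unadjusted p under 0.05, and DESeq2 called 18. The 756 genes lower in CL at 48 h had a median log2 fold change of -0.05 there, and 59.4% of the 715 tested were below 0, beside 52.3% of all genes. The 301 higher genes had a median of 0.21, with 78.6% of 280 above 0, beside 47.7% of all genes. The difference at birth was thus small for the 756 lower genes as a set, and the higher genes already leaned to the same side. It was larger for the 10 leading lower genes, with a median of -0.47 and 9 of 9 tested below 0. Of these, 3 had an unadjusted p under 0.05 by edgeR, and the lowest value was -1.64, beside -1.63 at 48 h. The 10 leading higher genes had a median of 0.27, with 8 of 10 above 0 and 4 at an unadjusted p under 0.05.

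At 72 h edgeR called 0 of 12681 genes, 563 (4.44%) had an unadjusted p under 0.05, and DESeq2 called 1. The lower genes had a median of -0.19 with 81.4% of 741 below 0, beside 47.9% of all genes, and the higher genes had one of 0.39 with 82.9% of 281 above 0, beside 52.1%. Without the library labelled LF5 the medians were -0.21 with 79.2% of 744 lower genes below 0, beside 49.4% of all genes, and 0.50 with 93.4% of 286 higher genes above 0, beside 50.6%, and edgeR called 0 genes with 835 at an unadjusted p under 0.05. At 168 h edgeR called 0 of 12786 genes, 243 (1.90%) had an unadjusted p under 0.05, and DESeq2 called 0. The medians were then -0.01 with 51.5% of 730 lower genes below 0, beside 48.9% of all genes, and 0.08 with 57.5% of 292 higher genes above 0, beside 51.1%. Without the 4 libraries at 168 h that matched another calf, which left 4 CL and 6 LF libraries, the median of the lower genes was -0.23 with 89.3% of 740 below 0, beside 53.8% of all genes, and edgeR called 0 genes with 414 at an unadjusted p under 0.05. The higher genes then had a median of 0.12 with 61.1% of 296 above 0, beside 46.2% of all genes. The libraries labelled CL2 and CL3 had matched each other, so leaving them out removed CL libraries that were in the right breed. Over the lower genes their median log2 CPM at 168 h was 5.07 (CL2) and 3.98 (CL3), beside 3.98 to 4.69 in LF. The values without these libraries therefore also reflect this loss. A fit leaving out only the libraries that matched a calf of the other breed was not made.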

How the data were processed

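RNA of jugular blood was made into single-end TruSeq libraries. The authors trimmed reads with TrimGalore (cutadapt), used STAR for alignment to UMD3.1 and deposited raw whole-number counts per Ensembl gene; samples with few reads were rejected. Both strand columns held about equal counts (50.6% and 49.8% of the unstranded count), so the unstranded column was used, and overlapping or antisense genes cannot be told apart. STAR leaves multimapping reads out of the counts, so genes with near-identical copies are uncertain.

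Counts were tested with edgeR 4.0.16 in R 4.3.3 (TMM, default filter on low counts, robust quasi-likelihood test), with only the groups compared in the fit. A gene was called at a Benjamini-Hochberg adjusted p under 0.05 and at least 1.5-fold. DESeq2 1.42.0 and limma 3.58.1 were alternatives. Log2 CPM used a prior count of 2 and normalization over 88 libraries. A count of 0 allows up to 0.0968 to 0.147 CPM (3 counts), for counting error only. Groups came from the labels. An L number with no stated meaning took 13 values in the 14 libraries, 1 of them in both breeds. No 2 of the 14 libraries were identical (91 pairs, smallest chi-square per degree of freedom 56.3). Each library is a separate calf.

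Libraries of the same calf at 48 h and 0 h deviated together (mean r = 0.476 in CL and 0.427 in LF), so the calf pairs these libraries within a breed. The within-breed values come from the fit without a block, as planned. The calf as a block was an alternative, given for the totals of genes called and the calls crossed between the breeds. Genes were named by p in each direction (10 each, at least 1 CPM), with the smallest p and the largest fold printed. The rule also asked for a symbol, which no gene had, and gene lists were left out for the same reason. The members and lists were chosen with earlier results of these data known. The scripts were tested on simulated data. The check of calves, the fits without the libraries it found and DESeq2 without LF5 were chosen after seeing the data. So were the spread and the counts of non-overlapping genes without LF5.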

Additional observations from a re-analysis of the deposited data

Results flagged for a closer look

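Of 32 groups of 7 values at 48 h tested for a sample far from the others, 1 stood out, where chance gives about 1 in 20. The share of unmapped reads was 4.36% in LF4, compared with 1.26% to 2.31% in the other 6 LF libraries. Without LF4, edgeR called 3 genes between CL and LF at 48 h.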

How the results depend on the processing

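The comparison at 48 h was the least stable. Against 0 genes in the fit of the 14 libraries, DESeq2 called 580, all 88 libraries in a single fit 542, the same with the L number 172, and limma voom with sample weights 1055. Fits added after seeing the data called 546 (one fit without the 5 libraries that matched another calf) and 1318 (DESeq2 without LF5). RLE normalization, no filter, at least 10 counts in every sample, no fold threshold, removal of the library labelled R and the replicate number as a block each gave 0. The numbers belong to different calves in CL and LF (mean r = -0.04 for the same number), so that block pairs nothing. Leaving out each calf in turn gave 0 to 966 genes, with 966 without LF5, 3 without LF4, 2 without LF7 and 1 without LF3; the cause was not tested.

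For the difference between the breeds in the change from 0 h, DESeq2 called 6 genes higher and 43 lower in CL, all 88 libraries 1 and 9, the calf as a replicate block 0 and 1, and the fit without the 5 libraries 3 and 13. Leaving out each calf gave 0 to 9 higher and 0 to 144 lower. At 0 h DESeq2 called 18 and all 88 libraries 3, with 0 to 1 on leaving out each calf, and at 72 h DESeq2 called 1. The within-breed counts stayed within 1.5 times, at 1600 to 2301 genes in CL and 1106 to 2027 in LF, the calf as a block (2133 and 1853) included. Non-overlapping genes rose from 15 to 194 and from 29 to 176 without LF5, a count that leaving out a library cannot lower, and no other calf was left out for it. The 4 genes printed kept their direction under all alternatives in which they were tested, and the cause of the other changes was not tested.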
